A study of Mus musculus with 12 samples.

Results

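The genes described here are 7 mouse genes of the receptors that bind the Fc part of immunoglobulin G (IgG) and of their close relatives: Fcgr1, Fcgr3, Fcgr4, Fcgr2b, Fcer1g, Fcgrt and Fcrls. They were taken by symbol from a table of 23337 genes. All 7 were in the table, and all 7 passed the filter on low counts that kept 12217 genes. RNA was sequenced from microglia, the resident macrophages of the brain, of male wild-type C57BL/6N mice at postnatal day 60. The 12 libraries comprised 3 each from cerebellum, striatum, hippocampus and cortex. Each library came from 3000 sorted cells that were TMEM119+, CD45 low and CD11b+, from tissue pooled over 3 to 5 mice.

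Activating Fc gamma receptors bind IgG on a coated particle and signal through the ITAM of the common gamma chain, which recruits the kinase Syk and drives phagocytosis. The inhibitory receptor Fcgr2b carries an ITIM, which recruits the phosphatase SHIP1, the product of Inpp5d, and dampens that signal. Microglia use these receptors to clear antibody-coated material, and the balance of activating and inhibitory receptors is known to set how strongly macrophages respond to immune complexes.

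Between 6479839 (striatum 2) and 14833340 (cortex 2) reads were counted per library. The summed level of the 10 microglia markers was 29410 to 40750 CPM (read counts scaled to a common library size) over the 12 libraries, so the labelled cell type was borne out by its markers. Striatum 2 stood apart: it held 10929 genes with a count, against 12214 to 13614 in the other 11 libraries, and it had no count for 986 (9.84%) of the 10018 genes that averaged at least 50 counts, against 4 to 44 such genes in each other library. Many of the values below that striatum 2 sets are also given without it. Whether the 3 pools of each region were drawn from different animals is not stated in the labels. The p-values therefore reflect how these libraries varied, and part of that variation may be technical.

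The genes lie on 3 chromosomes (GRCm38, GENCODE M21). Fcgr2b (chr1:170958617-170976547, minus strand), Fcgr4 (chr1:171018920-171029761, plus strand), Fcgr3 (chr1:171051174-171064935, minus strand) and Fcer1g (chr1:171229572-171234365, minus strand) share 275.7 kb of chromosome 1. Fcrls (chr3:87250758-87263738) and Fcgr1 (chr3:96282909-96293969) are on the minus strand of chromosome 3, and Fcgrt (chr7:45092990-45103851) is on the minus strand of chromosome 7. Of the receptor coding sequences, Fcgr3 and Fcgr2b were the most alike of the 6 pairs among Fcgr1, Fcgr3, Fcgr4 and Fcgr2b, with 87.5% identity over 782 aligned bases, against 67.8% to 69.8% in the other pairs. Their longest identical run, 129 bases, is shown because a read that falls inside it cannot be assigned to either gene. Capitals mark the differing bases that end the run on each side, and the sequence runs 20 bases past each end of it (coding bases 258 to 426 of Fcgr2b and 243 to 411 of Fcgr3, from GENCODE M21 transcripts).
Fcgr2b: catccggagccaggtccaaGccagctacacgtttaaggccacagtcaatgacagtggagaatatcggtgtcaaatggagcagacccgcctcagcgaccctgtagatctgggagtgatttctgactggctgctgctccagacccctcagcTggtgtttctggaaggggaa
Fcgr3: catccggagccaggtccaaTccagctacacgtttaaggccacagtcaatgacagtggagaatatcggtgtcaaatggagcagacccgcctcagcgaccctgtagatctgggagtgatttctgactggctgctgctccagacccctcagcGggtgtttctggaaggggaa
Of the 50-base windows of the Fcgr3 transcript, 12.79% occurred also in Fcgr2b and none in a gene outside the 7. Of those of Fcgr2b, 4.75% occurred in Fcgr3 and 7.73% in genes outside the 7. No window of Fcgr1, Fcgr4, Fcer1g, Fcgrt or Fcrls occurred in another gene. How the counting treated reads that match several places is not given in the sources used here, so the counts of Fcgr2b and Fcgr3 are less certain than those of the other 5 genes. Over all its exons, Fcgr2b shares 155 bases with the antisense gene Gm38204, and the library kit does not mark strand. The window search covered both strands, so these bases can be among the shared windows counted above. Gm38204 is not listed among the genes of the count table.

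The RefSeq promoters of the 7 genes (GRCm38.p6) were searched on both strands, over the 250 bases before the start, for the letters GAGGAA, the core sequence known to be bound by the myeloid factor PU.1, and for TTCNNNGAA, the type of site known to be bound by STAT factors. The letters GAGGAA were present in 4 of the 7, against 23.1% of 27025 promoters. The matches are shown in capitals, read 5′ to 3′ on the strand of the gene, where a match on the other strand appears as TTCCTC.
Fcgr1 (chr3:96293994-96294049, minus strand): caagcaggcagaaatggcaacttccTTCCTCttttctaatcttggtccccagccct
Fcgr3 (chr1:171059404-171059434, minus strand): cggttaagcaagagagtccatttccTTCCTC
Fcgr4 (chr1:171018879-171018925, plus strand): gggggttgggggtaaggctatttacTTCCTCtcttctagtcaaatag
Fcrls (chr3:87263638-87263693, minus strand): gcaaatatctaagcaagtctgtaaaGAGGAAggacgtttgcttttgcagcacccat
The distance before the start was 55 bases in Fcgr1, 6 in Fcgr3, 22 in Fcgr4 and 144 in Fcrls. The letters TTCNNNGAA were found in Fcgr1 alone of the 7, 109 bases before its start, against 7.2% of all promoters. The matches of both motifs in Fcgr1 did not overlap. The RefSeq starts, and with them the printed windows, of Fcgr3 and Fcrls lie inside the GENCODE genes. The RefSeq start of Fcgr4 and the last bases of its window also lie inside its GENCODE gene. A match describes the letters of the window and is no evidence of binding.

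Together the 7 genes took 0.594% (cortex 2) to 0.82% (cerebellum 1) of all counts, with a median of 0.651%. Fcrls alone supplied 49.8% to 59.8% of the counts of the 7, and was the gene with the 11th highest mean CPM of the table. To compare genes, CPM was divided by the length of the principal transcript. On that scale (CPM per kilobase) the medians over 12 libraries were 1612 for Fcrls, 1031 for Fcer1g, 916 for Fcgr3, 311 for Fcgrt, 106 for Fcgr1, 54.9 for Fcgr2b and 10.5 for Fcgr4. This order was the same in 11 of 12 libraries, and in the remaining library, striatum 3, Fcgr3 stood above Fcer1g. Among the 4 receptor genes Fcgr3, Fcgr1, Fcgr2b and Fcgr4, Fcgr3 made up 82.1% to 86.9% of their summed level per kilobase, Fcgr1 7.43% to 11.9%, Fcgr2b 2.82% to 6% and Fcgr4 0% to 1.68%. The lowest shares of Fcgr2b and Fcgr4 were those of striatum 2, and without it the lowest were 3.76% and 0.696%. The place of Fcgr2b depends on the transcript used: its principal transcript has 3544 bases and its shortest basic coding transcript 1084. With the shortest coding transcript of each gene, a choice made after the data were seen, Fcgr2b had a median of 179 CPM per kilobase and stood above Fcgr1 in 11 of 12 libraries, all but striatum 2. Its share of the 4 receptors was then 8.54% to 17%, or 11.2% to 17% without striatum 2, while that of Fcgr3 was 73.2% to 81.9%, or 73.2% to 79.4% without it. Fcgr3 was the leading receptor of the 4 under both lengths.

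**Figure D1:**
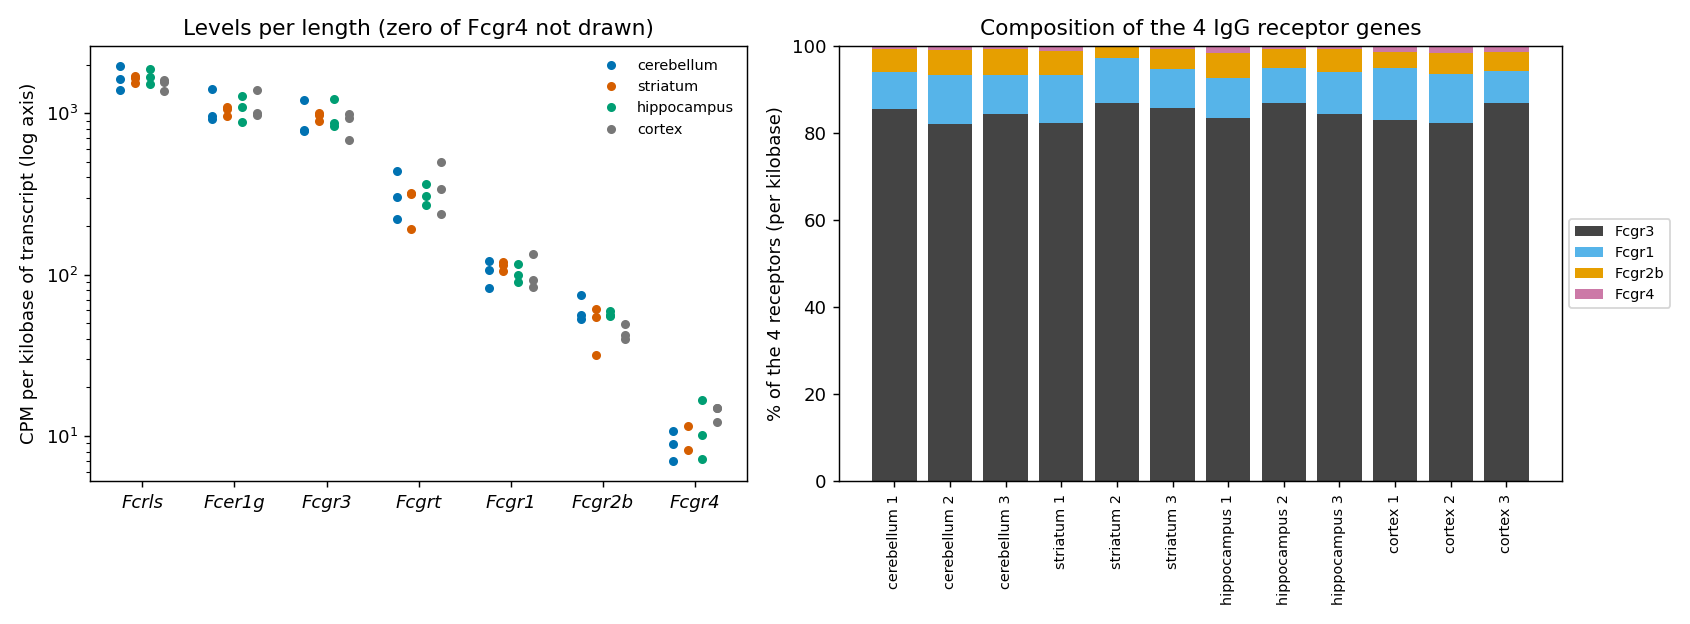
Left, CPM per kilobase of principal transcript on a log axis for the 7 genes, with 1 point per library coloured by region (the 0 of Fcgr4 in striatum 2 is not drawn); right, each library's summed level per kilobase of the 4 receptor genes split into percentages. The genes keep nearly the same order in every region, and Fcgr3 fills 82.1% to 86.9% of each bar.

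No gene of the 7 passed the adjusted threshold of 0.05 over the 4 regions or in any pair of them. In edgeR's quasi-likelihood test over the 4 regions, the adjusted p was 1 for each, and the unadjusted p was 0.24 for Fcgr2b and 0.661 to 0.951 for the other 6. Without striatum 2 the unadjusted p of this test was 0.107 for Fcgr2b, 0.428 for Fcgr4 and 0.765 to 0.955 for the rest. The count of all genes called in the test over all 12 libraries was 0 of 12217 (0%), with 222 (1.82%) at an unadjusted p under 0.05. DESeq2 called 5 of 12148 genes (0.0412%), none of them among the 7, and limma-voom called 0. Of the 42 differences between a pair of regions (7 genes in 6 pairs), none passed the adjusted threshold of 0.05, none had an unadjusted edgeR p under 0.05, and in each the 95% interval included 0. At an unadjusted p under 0.05 stood 2.4% of all tested genes in cerebellum minus striatum, 1.28% in cerebellum minus hippocampus, 1.55% in cerebellum minus cortex, 4.34% in striatum minus hippocampus, 5.59% in striatum minus cortex and 1.01% in hippocampus minus cortex, and 0% were called after adjustment in each. The libraries of the regions compared did not overlap in 4 of the 42, and all 4 concerned Fcgr2b or Fcgr4. Over all tested genes, libraries without overlap in either direction made up 6.34%, 7.64%, 6.74%, 11.5%, 10.6% and 6.68% in the same order of pairs. Striatum had the highest mean of Fcgr1, hippocampus that of Fcgr3 and Fcrls, cerebellum that of Fcgr2b, and cortex that of Fcgr4, Fcer1g and Fcgrt. The lowest mean was that of hippocampus for Fcgr1, of striatum for Fcgr4, Fcer1g and Fcgrt, and of cortex for Fcgr3, Fcgr2b and Fcrls. Without striatum 2, striatum was no longer lowest for Fcgr4 (12.4 CPM, cerebellum 11.2) or Fcgrt (559 CPM, hippocampus 555). In the order of the region means over all 12 libraries, none of the 21 pairs of neighbouring regions was free of overlap. The largest fold that any of a gene's 6 intervals reached was 1.38 for Fcrls, 1.48 for Fcer1g, 1.52 for Fcgr1, 1.55 for Fcgr3, 1.98 for Fcgr2b, 2.06 for Fcgrt and 9.79 for Fcgr4. Without striatum 2 it was 1.4 for Fcrls, 1.56 for Fcer1g, 1.57 for Fcgr1, 1.58 for Fcgr3, 1.79 for Fcgrt, 1.82 for Fcgr2b and 2.92 for Fcgr4. In bulk samples, fewer cells of a type and less RNA per cell cannot be told apart.

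**Figure D2:**
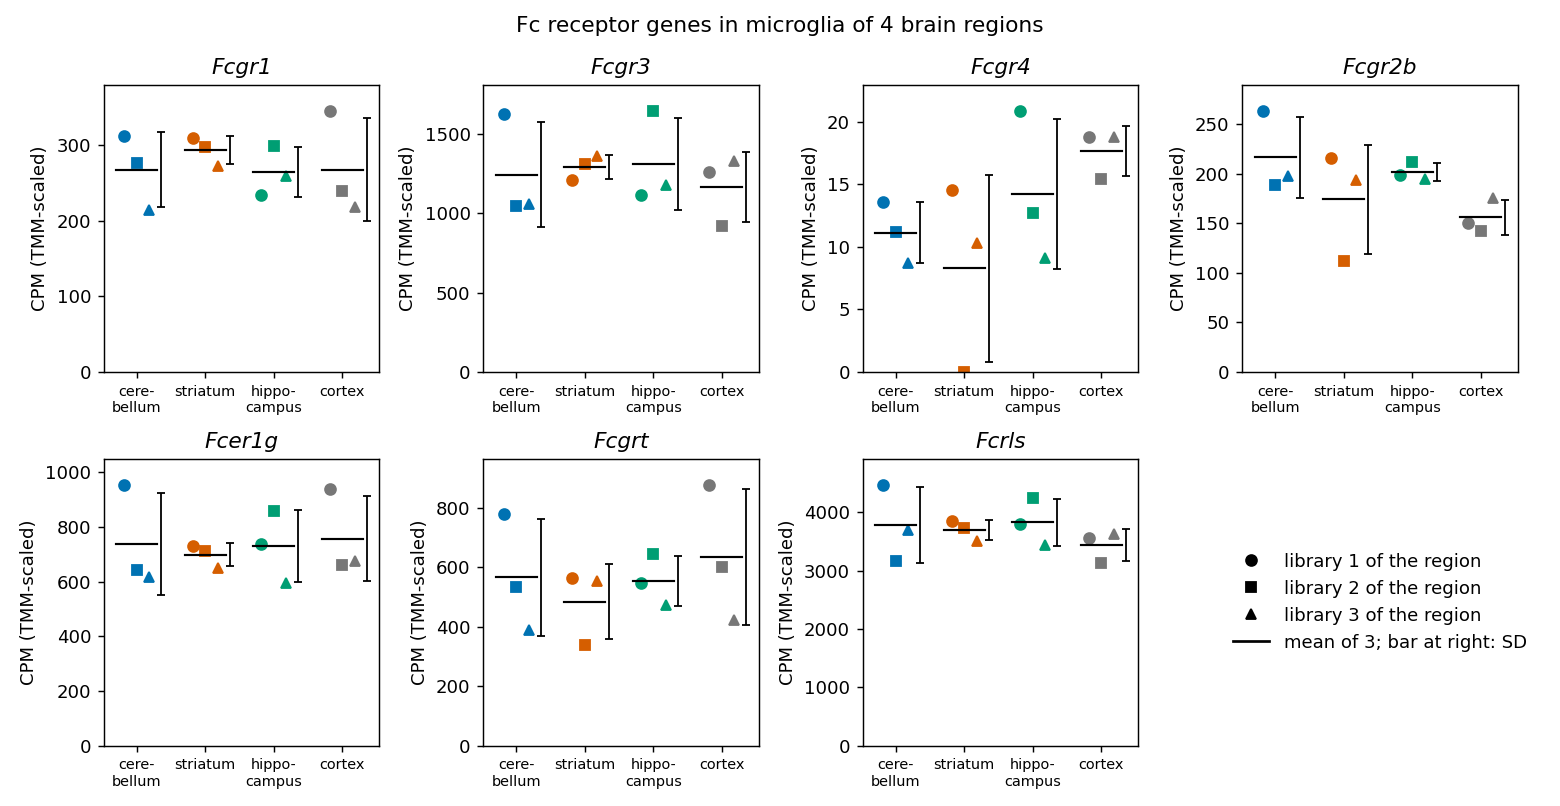
CPM (TMM-scaled libraries) of each gene in the 12 libraries by region, on axes that start at 0; symbols mark the library number within a region, horizontal lines the mean of 3 libraries and the bar at the right of each region the SD. All pairs of regions overlap, except that cortex lies below cerebellum and hippocampus in Fcgr2b and above cerebellum and striatum in Fcgr4, which stands at 0 in striatum 2.

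Among the activating receptors, Fcgr1, which encodes the high-affinity receptor for IgG, had 312, 276 and 214 CPM in cerebellum, 310, 298 and 273 CPM in striatum, 234, 300 and 259 CPM in hippocampus, and 345, 239 and 218 CPM in cortex. Its highest and its lowest cortex library spanned most of the range of all 12, so the regions overlapped throughout. The region means were 268 ± 49.6 CPM in cerebellum, 294 ± 19 in striatum, 264 ± 32.9 in hippocampus and 267 ± 68.2 in cortex (SD, n = 3 each). The largest of its differences, striatum minus hippocampus, was 0.15 on the log2 scale, which corresponds to 1.11-fold. It was 0.08 without hippocampus 1, 0.25 without hippocampus 2 and 0.34 after a correction for transcript length.

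Fcgr3, the low-affinity activating receptor that led the 4 receptor genes, had 1624, 1044 and 1059 CPM in cerebellum, 1209, 1311 and 1358 CPM in striatum, 1114, 1643 and 1177 CPM in hippocampus, and 1258, 916 and 1326 CPM in cortex. A single library stood above the other libraries of its region in cerebellum and in hippocampus, while striatum was the most even. The means were 1242 ± 331, 1292 ± 75.8, 1311 ± 289 and 1167 ± 220 CPM in cerebellum, striatum, hippocampus and cortex (SD, n = 3 each). Its largest difference, hippocampus minus cortex, was 0.17 (SE 0.21) on the log2 scale, and it was -0.03 without hippocampus 2, 0.02 without cortex 2, and 0.27 without hippocampus 1 and without cortex 3.

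Fcgr4, an activating receptor known for binding IgG2a and IgG2b with intermediate affinity, was the lowest of the 7. It had 13.6, 11.2 and 8.74 CPM in cerebellum, 14.5, 0 and 10.3 CPM in striatum, 20.9, 12.7 and 9.09 CPM in hippocampus, and 18.8, 15.4 and 18.8 CPM in cortex. The 3 cortex libraries lay above all libraries of cerebellum and of striatum, and hippocampus overlapped with every region. The count of 0 in striatum 2 allows up to 3 counts, or 0.484 CPM, and covers counting error only. Cerebellum averaged 11.2 ± 2.41 CPM and cortex 17.7 ± 1.97 CPM (SD, n = 3 each), a log2 difference of -0.66 with a 95% interval of -2.85 to 1.52 and an adjusted p of 1 in edgeR. Libraries of cerebellum lay below all those of cortex in 2.92% of the genes tested. For striatum minus cortex the log2 difference was -1.09 (95% interval -3.29 to 1.12, adjusted p = 0.846 in edgeR), and such an order of libraries was met in 5.96% of genes. That value rests on striatum 2: it was -0.51 without that library (95% interval -1.50 to 0.48) and -1.76 without striatum 1, and the means without it were 12.4 CPM in striatum (n = 2) and 17.7 CPM in cortex (n = 3). The sign of cerebellum minus striatum also turned, with 0.42 on the log2 scale over all libraries and -0.16 without striatum 2. limma-voom, which adds a small value to the 0, gave -2.60 for striatum minus cortex (unadjusted p = 0.0453, adjusted p = 0.646).

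Fcer1g, which encodes the common gamma chain that the activating receptors need for surface expression and signalling, had 954, 643 and 618 CPM in cerebellum, 731, 713 and 650 CPM in striatum, 737, 860 and 596 CPM in hippocampus, and 938, 660 and 677 CPM in cortex. Its high libraries, cerebellum 1 and cortex 1, belonged to different regions, and the region means ran only from 698 ± 42.4 CPM in striatum to 758 ± 156 CPM in cortex (SD, n = 3 each). Per kilobase it reached 0.96 to 1.49 times the level of Fcgr3 in the 12 libraries. The other ITAM chain of microglia, Tyrobp (DAP12), averaged 857 CPM over all libraries, or 1519 CPM per kilobase, and its region means of 855 ± 223, 851 ± 113, 879 ± 227 and 841 ± 186 CPM in cerebellum, striatum, hippocampus and cortex were within 1 SD of each other (n = 3 each). Cd247, the zeta chain of T and NK cells, had no count in any library. The Fcer1g difference of striatum minus cortex, -0.12 (SE 0.21) on the log2 scale, was the largest of its 6, and it was 0.39 after a correction for transcript length and 0.06 without cortex 1. With library totals in place of TMM scaling it was -0.19, and it was -0.07 without striatum 3, -0.21 without cortex 2 and -0.20 without cortex 3.

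Fcgr2b, the inhibitory receptor, was the member with the smallest p over the regions. It had 263, 188 and 198 CPM in cerebellum, 216, 112 and 194 CPM in striatum, 198, 212 and 195 CPM in hippocampus, and 150, 142 and 176 CPM in cortex. All 3 libraries of cerebellum and all 3 of hippocampus lay above the 3 of cortex, and striatum 2 was the lowest of the 12. Cerebellum averaged 216 ± 40.7 CPM and cortex 156 ± 17.6 CPM (SD, n = 3 each), a log2 difference of 0.47 (SE 0.24, 95% interval -0.04 to 0.99) that did not pass in edgeR (unadjusted p = 0.0682, adjusted p = 1). Libraries of cerebellum lay above all those of cortex in 3.82% of the genes tested. Hippocampus averaged 202 ± 8.87 CPM, and hippocampus minus cortex was 0.37 (SE 0.24, 95% interval -0.14 to 0.88, adjusted p = 1 in edgeR), with such an order of libraries in 3.63% of genes. Without striatum 2, cerebellum minus cortex was 0.47 (SE 0.18, 95% interval 0.07 to 0.86) with an unadjusted p of 0.0237 and an adjusted p of 1 in edgeR. Without cerebellum 1, the highest of the 12 libraries, it was 0.31 with an adjusted p of 1 in edgeR. Striatum itself averaged 174 ± 55 CPM over 3 libraries and 205 CPM over the other 2. Striatum minus cortex was 0.16 over all libraries and 0.40 without striatum 2 (unadjusted p = 0.0733, adjusted p = 0.995 in edgeR), and the sign of striatum minus hippocampus turned, to 0.03. With striatum 2 left out, the cortex held the lowest 3 values of the 11. The share of all genes with such an order was not counted, so no conclusion is drawn from it.

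**Figure D3:**
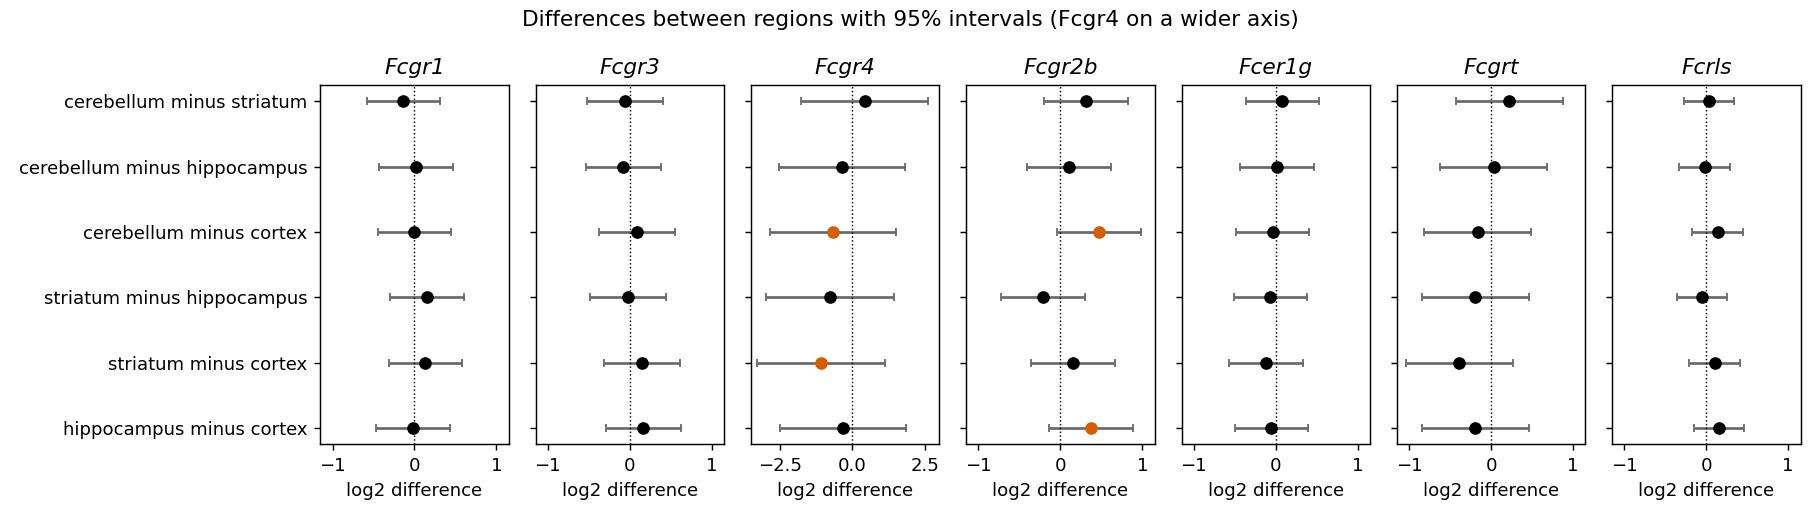
Log2 differences (first minus second region of each pair, x axis) of the 7 genes, with 95% intervals from the edgeR fit; orange points mark the 4 differences whose libraries do not overlap, and the Fcgr4 panel has a wider axis. Each interval includes 0; that of Fcgr2b in cerebellum minus cortex, from -0.04 to 0.99, comes closest to leaving it out.

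The level of Fcgr2b was also set against that of Fcgr3 in the same library. The percentage depends on the lengths of both transcripts, so only its change between libraries is read. Fcgr2b CPM was 16.2%, 18% and 18.7% of Fcgr3 CPM in cerebellum, 17.9%, 8.54% and 14.3% in striatum, 17.8%, 12.9% and 16.6% in hippocampus, and 11.9%, 15.5% and 13.3% in cortex. The 3 cerebellum libraries lay above the 3 cortex libraries (17.7% ± 1.3 and 13.6% ± 1.83, SD, n = 3 each), and every other pair of regions overlapped. No test was made of this percentage, which was formed from genes chosen with earlier results known. Reads shared by both genes touch its value in all libraries.

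**Figure D4:**
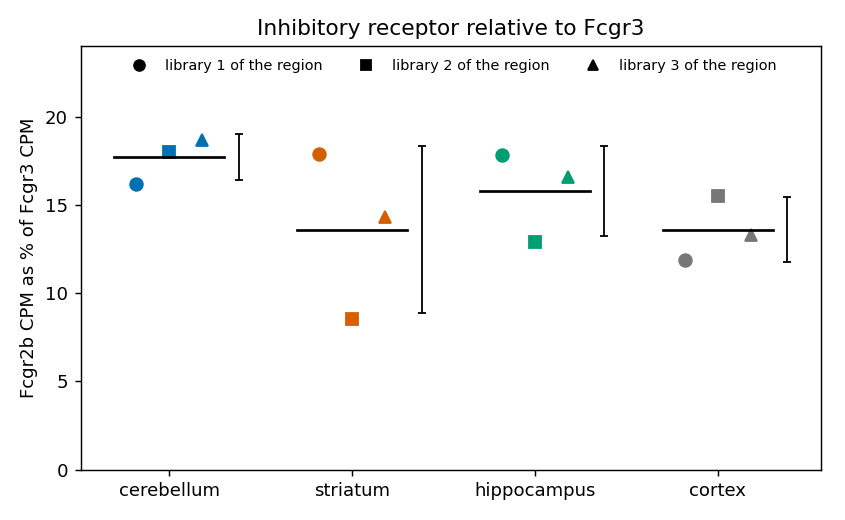
Fcgr2b CPM as a percentage of Fcgr3 CPM (y axis, from 0) in the 12 libraries by region, with the mean (line) and SD (bar) of 3 libraries. Cerebellum lies between 16.2% and 18.7% and cortex between 11.9% and 15.5%, and striatum 2 is the lowest library at 8.54%.

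Fcgrt encodes the heavy chain of the neonatal Fc receptor, which pairs with B2m in endosomes and returns IgG and albumin from degradation. It had 779, 533 and 390 CPM in cerebellum, 563, 338 and 555 CPM in striatum, 546, 644 and 475 CPM in hippocampus, and 878, 602 and 422 CPM in cortex. Cerebellum and cortex each held both low and high libraries, and all regions overlapped. Its means were 567 ± 197, 485 ± 128, 555 ± 84.6 and 634 ± 229 CPM in cerebellum, striatum, hippocampus and cortex (SD, n = 3 each). The largest difference, striatum minus cortex, was -0.39 (SE 0.30) on the log2 scale over all libraries and -0.18 (SE 0.31) without striatum 2. It was -0.08 without cortex 1, -0.61 without cortex 3 and -0.13 after the correction for transcript length, and the sign of striatum minus hippocampus turned without striatum 2, to 0.01. The SD of log2 CPM over the 12 libraries was 0.393, and 85.6% of the 494 tested genes within a factor of 2 of its mean CPM had a smaller one. Without striatum 2 the SD was 0.346, and 82.8% of those genes had a smaller one. Its partner B2m averaged 1110 ± 212 CPM in cerebellum, 1034 ± 121 in striatum, 1024 ± 189 in hippocampus and 972 ± 155 in cortex (adjusted p = 1 in edgeR over the regions).

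Fcrls, an Fc receptor-like gene used as a marker of microglia in mice, was the most even of the 7. It had 4472, 3169 and 3703 CPM in cerebellum, 3843, 3733 and 3501 CPM in striatum, 3800, 4249 and 3437 CPM in hippocampus, and 3558, 3127 and 3627 CPM in cortex. The highest library had 1.43 times the level of the lowest, against 1.6 in Fcer1g, 1.61 in Fcgr1, 1.79 in Fcgr3, 2.35 in Fcgr2b and 2.6 in Fcgrt. Without striatum 2, the lowest library of Fcgr2b, Fcgrt and Fcgr4, the ratio was 1.85 in Fcgr2b, 2.25 in Fcgrt and 2.39 in Fcgr4, and the other 4 were as before. Means were 3781 ± 655 CPM in cerebellum, 3692 ± 175 in striatum, 3829 ± 406 in hippocampus and 3437 ± 271 in cortex (SD, n = 3 each). The SD of log2 CPM was 0.15, and 1 of the 31 tested genes of like level had a smaller one. Its largest difference, hippocampus minus cortex, was 0.16 (SE 0.14, 95% interval -0.15 to 0.47, adjusted p = 1 in edgeR), and it was 0.07 without hippocampus 2 and 0.09 without cortex 2.

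Much of the spread lay between libraries of a region. Within cerebellum, library 1 was the highest for 7 of 7 genes. Within striatum, library 1 was the highest for 6 of 7. Hippocampus 2 led its region for 6 of 7, and cortex 1 for 4 of 7. The share of all genes that these libraries led was not counted, so the counts are not read as a trait of the 7 genes. The levels were correlated over the 12 libraries for all 21 pairs of the genes, as log2 CPM with a two-sided permutation test of 100000 draws adjusted over the 21 pairs. Fcgr3 and Fcrls had the highest Pearson r, 0.81 (p = 0.0017, adjusted p = 0.0357, permutation test), with a Spearman rho of 0.61 (p = 0.0398, adjusted p = 0.139, permutation test). Without cortex 2 and hippocampus 2, the libraries farthest from the median of Fcgr3, r was 0.67. For Fcer1g and Fcgrt r was 0.73 (p = 0.00712, adjusted p = 0.0748, permutation test) and rho 0.67 (p = 0.0197, adjusted p = 0.102, permutation test). Their r was 0.38 without cerebellum 1 and cortex 1, the libraries farthest from the median of Fcer1g, and 0.85 without striatum 2. Of the 21 pairs, 1 passed by Pearson and 0 by Spearman. How often pairs of other genes reach such an r over these libraries was not counted. No conclusion about the 7 genes as a group is therefore drawn from these correlations. Fcgr4 and Fcgr2b had an r of 0.63 over 12 libraries and -0.30 without striatum 2.

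For each member, the 3 genes with the most similar pattern were taken by Pearson r of log2 CPM over the 12 libraries among 8373 genes of at least 10 CPM, as a description of likeness. They were Ndfip1 (0.97), Ppt1 and Unc93b1 (0.93 each) for Fcrls, and Mpv17 (0.91), Dtnbp1 and Hexa (0.89 each) for Fcgr3. Fcer1g was most like Spcs1 and Sft2d1 (0.97 each) and C1qc (0.96), and Fcgrt most like Ndufs7 (0.97), Psmc4 and Coro1a (0.96 each). Fcgr1 was most like Pxmp3 and Tmem192 (0.92 each) and Trappc3 (0.91). Asah1 (0.88), Ctbs and Pim2 (0.87 each) were most like Fcgr2b, and without striatum 2 these values were 0.78, 0.75 and 0.75. Pinx1, Pdss1 and Dnajc25 (0.99 each) were most like Fcgr4, and without striatum 2 they were 0.82, 0.82 and 0.92.

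Other receptors for immunoglobulins were nearly absent apart from a few. Of 13 other Fc and Fc receptor-like genes, 4 passed the filter on low counts: B2m, Fcrl1 (52.8 CPM on average), Trim21, the cytosolic antibody receptor (34.2 CPM), and Fcrlb (2.60 CPM). Fcer1a, the IgE-binding chain of the high-affinity IgE receptor, and Fcamr, a receptor for IgA and IgM, had no count in any library, and neither did the IgM receptor gene Fcmr, listed under its older symbol Faim3. Fcrl1, an Fc receptor-like gene known from B cells, averaged 68.4 ± 7.74 CPM in cerebellum, 46.7 ± 18.4 in striatum, 41.7 ± 14 in hippocampus and 54.6 ± 20.9 in cortex (adjusted p = 1 in edgeR over the regions). Striatum 2 had 25.5 CPM of it, and without that library striatum averaged 57.3 CPM. Of the B cell markers, Ms4a1 had no count, Cd79b ran from 92.3 to 202 CPM and Cd79a from 0 to 33.2 CPM over the libraries, and their part in the levels of Fcrl1 and Fcgr2b was not tested.

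Genes of the pathway behind the receptors were compared in lists. In none of the lists did a gene pass the adjusted threshold over the 4 regions in edgeR: 0 of the 28 tested kinases and adaptors, 0 of the 28 actin and phagocytic cup genes, 0 of 5 NADPH oxidase genes, 0 of 16 inhibitory signalling genes and neither of the adaptor chains tested, Tyrobp and Hcst, beside 0% of all genes. Syk averaged 163 ± 30.7 CPM in cerebellum, 165 ± 30.5 in striatum, 152 ± 34.6 in hippocampus and 129 ± 17.8 in cortex. Inpp5d averaged 758 ± 227, 959 ± 241, 669 ± 159 and 706 ± 191 CPM in the same order (SD, n = 3 each). Crkl, an adaptor of the phagocytic cup, was the only list gene with an unadjusted p under 0.05 (0.0401, adjusted p = 1 in edgeR), with 63.6 ± 19.8 CPM in cerebellum, 106 ± 64.8 in striatum, 59 ± 17.1 in hippocampus and 41.1 ± 10.8 in cortex. Striatum 2 had 180 CPM of it. Without that library striatum averaged 68.7 CPM, and the unadjusted p was 0.188 (adjusted p = 1 in edgeR). The guanine nucleotide exchange factor gene Vav2 had region means of 80.8 to 146 CPM, and the inhibitory adaptor Dok2 15.1 to 38.3 CPM. Without striatum 2 the unadjusted p of Dok2 was 0.0246 (adjusted p = 1 in edgeR). Pilra, an inhibitory receptor, had 25.4 to 44.8 CPM. Plcg1, a phospholipase C gene, had region means of 67.5 to 128 CPM and the PI3-kinase gene Pik3cb 27.6 to 63.6 CPM. For Vav2, Plcg1, Pik3cb and Inpp5d the highest mean was that of striatum, where striatum 2 was the highest library, and without it the striatum means were 122, 95.9, 43.8 and 821 CPM. The oxidase genes Ncf1 and Cyba had means of 419 to 525 and 481 to 583 CPM. Without striatum 2 their striatum means were 439 and 465 CPM. Hcst, the adaptor DAP10, which carries no ITAM, had 6.39 to 12.7 CPM. The median log2 difference over the 6 pairs of regions lay between -0.02 and 0.18 for the kinases and adaptors, -0.14 and 0.03 for the actin and phagocytic cup genes, -0.13 and 0.07 for the oxidase genes and -0.04 and 0.21 for the inhibitory signalling genes, beside -0.06 and 0.06 for all genes. Without striatum 2 these ranges were -0.02 to 0.11, -0.08 to 0.03, -0.10 to 0.17 and -0.02 to 0.14, beside -0.03 to 0.02 for all genes.

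Markers of other cells that carry Fc receptors differed in level. The 8 markers of border-associated macrophages summed to 265 to 876 CPM over the libraries, of which Mrc1 supplied 229 to 711 CPM. F13a1 reached at most 66.1 CPM, Lyve1 32.6 CPM and Cd163 26.1 CPM. The 7 markers of monocytes and neutrophils in the table summed to at most 17.3 CPM, with Ly6c2 at 0. Those of mast cells summed to at most 17.8 CPM, in striatum 2, and those of T and NK cells to at most 2.10 CPM, with Cd3e, Cd3d, Ncr1 and Cd8a at 0. The choroid plexus and ependymal markers reached 676 CPM in striatum 2. The part of these cells in the levels of the 7 genes was not tested.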

How the data were processed

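The authors deposited whole-number read counts per gene symbol, without normalization. Per the submitters' processing notes, STAR 2.5.3a, Trim Galore 0.4.3, HTSeq and Picard were used with the mm10 build; the sources used here give neither the annotation nor the strand setting. Per the labels' protocols, cDNA was made with Smart-Seq v4 (9 cycles) and 380 pg entered Nextera XT libraries (13 cycles), a kit without molecular identifiers.

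The counts were fitted with edgeR 4.0.16 (R 4.3.3): filterByExpr by region (minimum count 10, minimum total 15), TMM scaling, 1 mean per region over all 12 libraries, and the robust quasi-likelihood test with Benjamini-Hochberg adjustment over 12217 genes (threshold 0.05). Levels are CPM with TMM-scaled library sizes, and log2 CPM has a prior count of 2. DESeq2 1.42.0 and limma-voom (limma 3.58.1) were alternatives. The members and lists were chosen with earlier results of these data known. All 7 members are named. From each list the 2 genes with the smallest p over the regions are named, with Tyrobp, Syk, Inpp5d and B2m, and other genes were chosen after their values were seen. No library was counted as a copy, since libraries of the same region differed beyond sampling noise (chi-square divided by its degrees of freedom, 33.8 to 97.5). Such values do not show whether the libraries came from separate animals or separate pools of cells. A marker gene of the lists is not reported here.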

Additional observations from a re-analysis of the deposited data

How the results depend on the processing

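Of the 42 member differences, 0 passed the adjusted threshold under any of the 19 alternatives, 12 of which leave out a library. The sign changed in 30 of the 42 without some library, in 11 with a correction for transcript length, and in 6 with another tool, scaling, filter or block, which shows only that most differences lie near 0. The length correction, for which 11017 of 12217 genes (90.2%) had a length, moved the median of all genes by -0.128 in cerebellum minus striatum, and turned Fcer1g in striatum minus cortex to 0.393. Genes called by DESeq2 were 5 over the 4 regions, 3 in cerebellum minus striatum, 2 in cerebellum minus hippocampus, 6 in cerebellum minus cortex, 11 in striatum minus cortex and 3 in hippocampus minus cortex, against 0 by edgeR in each. Replicate numbers recur in the regions, but were not taken to pair the libraries, since not every pair of the same number had a correlation of deviations over 0.1: 4 of 18 did (mean 0.048), against 2 of 36 pairs of different numbers (mean -0.024). A hint of pairing is that 9 of 12 libraries correlated best with their own number. Pairing is therefore not excluded, and the SEs, intervals and p-values of the edgeR fit over all 12 libraries do not take it into account. With the replicate number as a block, Fcgr2b in cerebellum minus cortex was 0.461 and no gene was called. Leaving out each library in turn gave Fcer1g in striatum minus cortex -0.212 to 0.06 and Fcgr3 in hippocampus minus cortex -0.028 to 0.269, and edgeR called 0 genes each time. The SE of Fcgr4 in cerebellum minus cortex was 1.01 over all libraries and 0.408 without striatum 2, where its count was 0.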
